A study of Mus musculus with 9 samples.

Results

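The genes for voltage-gated calcium channels and for the calcium release channels of the endoplasmic reticulum were measured in dorsal root ganglia (DRG) of mouse embryos at E18.5. They were chosen by gene name alone and comprise 32 of the 55247 genes in the count table: 10 genes for pore-forming α1 subunits (Cacna1a to Cacna1i and Cacna1s), 4 for α2δ subunits (Cacna2d1 to Cacna2d4), 4 for β subunits (Cacnb1 to Cacnb4), 8 for γ subunits (Cacng1 to Cacng8), 3 ryanodine receptors (Ryr1 to Ryr3) and 3 inositol trisphosphate (IP3) receptors (Itpr1 to Itpr3). There were 9 libraries of 3 genotypes, with 3 libraries each. WT embryos had intact Isl1 and Meis2 genes. In Isl1Cre/+ embryos, the Cre recombinase was placed in 1 copy of Isl1, a gene expressed by postmitotic sensory neurons. Isl1Cre/+::Meis2LoxP/LoxP embryos, called mutant here, had the same Cre allele together with LoxP sites around exon 8 in both copies of Meis2, a transcription factor of touch-sensing and proprioceptive neurons. The comparisons asked what the loss of Meis2 in Isl1-expressing cells changed, and the Isl1Cre/+ libraries served as a control for the Cre allele. The study's reporting form describes its replicates in general as biological, but the labels do not say whether these libraries came from separate embryos, so p-values measure the spread between these libraries, part of which may be technical.

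A voltage-gated calcium channel opens when the membrane is depolarised, and its current type is set by the α1 subunit. In sensory neurons, N- and P/Q-type channels trigger transmitter release, L-type channels link activity to gene expression, and T-type channels open at low voltage and shape firing. The β subunits carry the pore to the membrane and adjust its gating, α2δ subunits promote its surface expression and are the binding site of gabapentin, and the γ family holds a muscle channel subunit together with proteins that regulate AMPA receptors. Ryanodine and IP3 receptors release calcium from the reticulum. In skeletal muscle, Cacna1s and Cacng1 encode subunits of the channel that senses voltage in the membrane, and Ryr1 encodes the release channel coupled to it.

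Libraries held 23854607 to 29103444 counts, of which the 32 genes took 0.1605% to 0.1872%. Meis2 had 2746 to 2919 counts in the WT libraries, 2537 to 2857 in the Isl1Cre/+ libraries and 1004 to 1084 in the mutant libraries. Isl1 had 6030 to 8182 counts in WT, 4840 to 5719 in Isl1Cre/+ and 4327 to 5738 in mutant libraries, so both genes followed the labelled genotypes. The 11 sensory neuron markers, among them Tubb3, Avil and Prph, summed to 7529 to 9919 counts per 1000000 counts (CPM) in every library. The 15 skeletal muscle markers, such as Acta1, Ckm and Myh3, summed to 725, 184 and 1259 CPM in WT libraries 1 to 3, to 183, 248 and 95.2 CPM in Isl1Cre/+ libraries, and to 216, 2949 and 821 CPM in mutant libraries. Mutant library 2 therefore stood apart in these markers. For the tested channel genes, their partners and the marker lists, it is stated which differences called between mutant and other libraries were also called without it. Since the tissue was sequenced in bulk, fewer cells of a type and less RNA per cell cannot be told apart.

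Promoter sequences are shown for 4 genes. Cacna1s and Ryr1 were taken as muscle subunits, and Cacng2 and Cacna1i as genes of neuronal subunits with lower values in 1 or both Cre genotypes. Cacna1i had too few counts for the main tests. The windows are those of RefSeq on GRCm38.p6, 250 bases before to 50 after a start site, read 5′ to 3′ on the strand of the gene. Capitals mark CAGCTG, the E-box form bound by muscle regulators such as MyoD, and TGACAG or its reverse complement CTGTCA, the half-site bound by MEIS proteins.
Cacna1s (chr1:136052561-136052860, plus strand): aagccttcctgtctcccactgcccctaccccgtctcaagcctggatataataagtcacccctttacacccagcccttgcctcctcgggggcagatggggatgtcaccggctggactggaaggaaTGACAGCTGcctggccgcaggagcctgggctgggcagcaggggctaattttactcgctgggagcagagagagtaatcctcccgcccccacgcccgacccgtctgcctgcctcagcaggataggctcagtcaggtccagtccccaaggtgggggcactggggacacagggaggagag
Ryr1 (chr7:29125102-29125401, minus strand): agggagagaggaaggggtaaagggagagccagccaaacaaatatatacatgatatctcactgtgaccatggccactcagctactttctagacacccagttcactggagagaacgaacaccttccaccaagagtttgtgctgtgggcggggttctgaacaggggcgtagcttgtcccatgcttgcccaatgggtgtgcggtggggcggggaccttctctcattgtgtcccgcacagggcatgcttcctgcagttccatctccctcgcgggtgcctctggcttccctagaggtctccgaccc
Cacng2 (chr15:78119231-78119530, minus strand): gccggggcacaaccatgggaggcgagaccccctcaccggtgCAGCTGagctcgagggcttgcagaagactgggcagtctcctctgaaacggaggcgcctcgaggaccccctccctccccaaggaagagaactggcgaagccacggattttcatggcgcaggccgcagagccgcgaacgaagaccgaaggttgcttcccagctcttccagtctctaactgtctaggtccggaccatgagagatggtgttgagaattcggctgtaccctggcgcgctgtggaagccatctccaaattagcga
Cacna1i (chr15:80286988-80287287, plus strand): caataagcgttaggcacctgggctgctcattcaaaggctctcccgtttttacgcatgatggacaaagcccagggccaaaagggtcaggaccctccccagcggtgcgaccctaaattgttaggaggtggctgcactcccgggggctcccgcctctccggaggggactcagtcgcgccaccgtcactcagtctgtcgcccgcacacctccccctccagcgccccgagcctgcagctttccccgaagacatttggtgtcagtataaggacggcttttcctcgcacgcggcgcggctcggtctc
In the Cacna1s window both words were found 1 time and overlapped in 3 letters, starting 126 and 123 bases before the start site. The Cacng2 window held CAGCTG once, 209 bases before the start site, and the windows of Ryr1 and Cacna1i held neither word. Of all 32851 promoter windows in this collection, 16.3% held CAGCTG and 19.18% held the MEIS half-site. Of the 33 windows that belong to 24 of the 32 genes, 11 (33.33%) held CAGCTG and 4 (12.12%) the half-site. The half-site lay in windows of Cacna1c, Cacna1s, Cacnb4 and Cacng3. Windows of Cacna1s and Ryr1 contained 9 CpG dinucleotides each, those of Cacng2 and Cacna1i contained 20 and 23, and the median was 17 over the 33 windows and 7 over all windows. These matches describe the letters in the windows and are not measured binding sites. Cacna1a, Cacna1g, Cacna1h, Cacna2d4, Cacng1, Cacng4, Itpr1 and Ryr3 have no entry in this collection.

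To compare levels between genes, CPM were divided by the kilobases of exon that the annotation gives each gene. In WT libraries, the highest level among the 32 genes was that of Cacnb3, the β subunit typical of N-type channels in neurons, with 48.8 ± 6.03 CPM per kilobase (SD, n = 3). Cacna1b, the pore of the N-type channel, followed with 27.6 ± 2.07 CPM per kilobase, then Cacna2d1 with 24.02 ± 5.04, Cacna2d2 with 23.2 ± 3.44 and Cacng7 with 20.4 ± 3.56. Of these genes, only Cacnb3 was separated from the next in order, since the ranges of Cacna1b, Cacna2d1, Cacna2d2, Cacng7 and Cacnb1 overlapped from one to the next. With the longest transcript as the length, Cacnb3 was again the highest and Cacna1b moved from the 2nd to the 4th place. At the low end, Cacna2d4 and Cacna1f, both known from photoreceptors, stood at 0.0152 ± 0.00676 and 0.0170 ± 0.00567 CPM per kilobase, with at most 7 and 8 counts in any library.

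**Figure D1:**
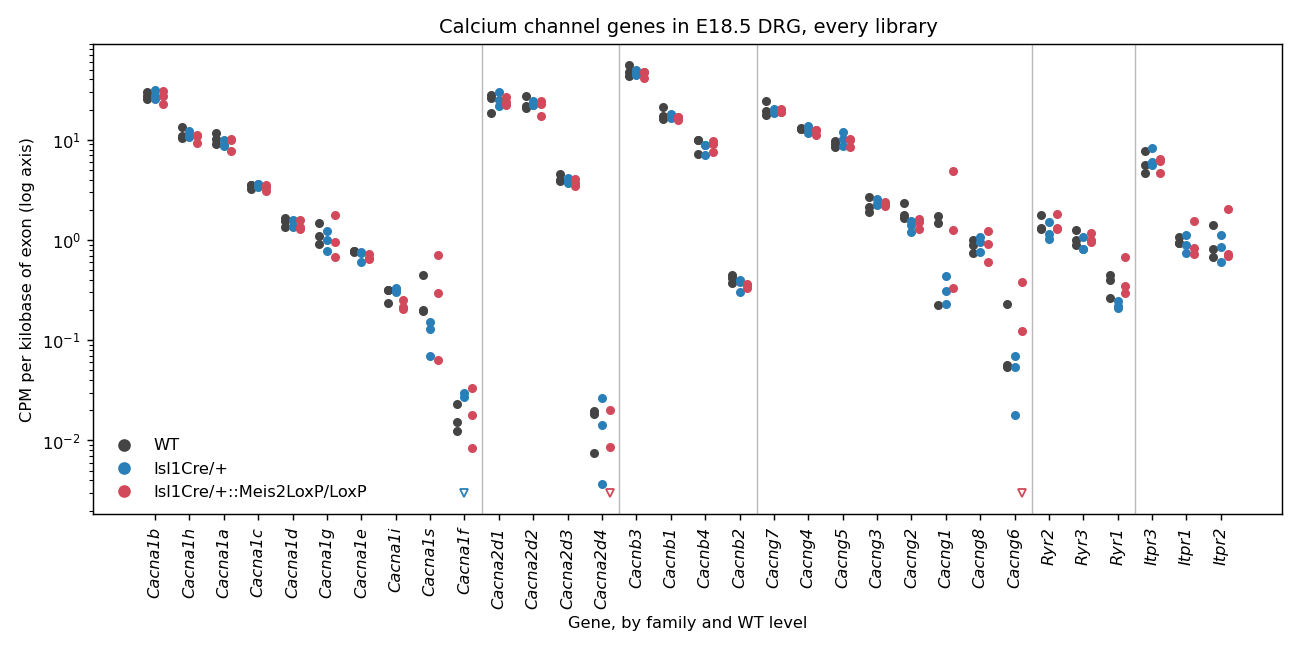
Level of each of the 32 genes in CPM per kilobase of exon on a log axis, with 1 point per library, coloured by genotype, and open triangles for libraries with a count of 0. Genes are grouped by family and ordered by WT level. Cacnb3 and Cacna1b lie at the top of their families at 48.8 and 27.6 CPM per kilobase in WT, and Cacng1, Cacna1s and Cacng6 show the widest spread between libraries.

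Among the α1 genes, those of the high-voltage channels of nerve terminals made up 67.9% ± 0.879 (SD, n = 3) of the summed α1 level per kilobase in WT, 68.1% ± 1.35 in Isl1Cre/+ and 68.3% ± 2.60 in mutant libraries. Cacna1b led this group. It had 296, 273 and 255 CPM in WT, 256, 314 and 270 CPM in Isl1Cre/+, and 302, 227 and 271 CPM in mutant libraries, with complete overlap of the genotypes. Cacna1b alone held 48.5% ± 1.06 of the α1 level in WT and Cacna1a, the P/Q-type pore, 18.0% ± 0.585. Cacna1e, the R-type pore, held 1.36% ± 0.108. Its level was 19.1 to 19.7 CPM in WT and 16.3 to 18.46 CPM in mutant libraries, so these 2 genotypes did not overlap, while its Isl1Cre/+ libraries, at 15.2 to 19.3 CPM, overlapped both. The difference of Cacna1e between mutant and WT was -0.19 ± 0.10 on the log2 scale (SE) and was not called (adjusted p = 1, edgeR quasi-likelihood test).

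L-type genes made up 9.24% ± 0.563 of the α1 level in WT (SD, n = 3), mostly Cacna1c and Cacna1d, the L-type pores of neurons and heart. Cacna1c was measured at 75.3, 75.2 and 68.2 CPM in WT, at 72.1, 76.4 and 77.2 CPM in Isl1Cre/+ and at 74.4, 66.1 and 71.5 CPM in mutant libraries, again without separation of the genotypes. The muscle pore Cacna1s is described with the other muscle subunits.

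T-type genes held 22.9% ± 1.38 of the α1 level per kilobase in WT, 22.6% ± 1.18 in Isl1Cre/+ and 22.1% ± 1.58 in mutant libraries (SD, n = 3). No difference between genotypes was larger than the spread between libraries: mutant minus WT was -0.745 percentage points (p = 0.6), mutant minus Isl1Cre/+ -0.524 (p = 0.7) and Isl1Cre/+ minus WT -0.221 (p = 0.8) by two-sided exact permutation tests, whose smallest possible p is 0.1 with 3 against 3 libraries. Most of this share was Cacna1h, the T-type pore of low-threshold mechanoreceptors, with 132, 107 and 101 CPM in WT, 108, 119 and 103 CPM in Isl1Cre/+ and 108, 90.9 and 107 CPM in mutant libraries. The libraries of the 3 genotypes overlapped for Cacna1h. Cacna1g ranged from 6.80 to 17.9 CPM over the 9 libraries, and both extremes were mutant libraries.

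Cacna1i, the remaining T-type pore, stayed under 100 counts in every library (53 to 97) and was therefore not tested. Its level was 3.12, 2.30 and 3.16 CPM in WT, 3.30, 3.22 and 2.96 CPM in Isl1Cre/+ and 2.11, 2.01 and 2.46 CPM in mutant libraries. All mutant libraries lay below all Isl1Cre/+ libraries and below 2 of the 3 WT libraries, with mutant library 3 above WT library 2. When genes with low counts were kept in the fit, Cacna1i met the criterion for mutant vs Isl1Cre/+ with a log2 fold change of -0.54 ± 0.19 (SE, adjusted p = 0.867, edgeR quasi-likelihood test), a setting in which 3.18% of all 32358 genes met it, and the difference from WT was -0.36 ± 0.23 (adjusted p = 0.997).

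**Figure D2:**
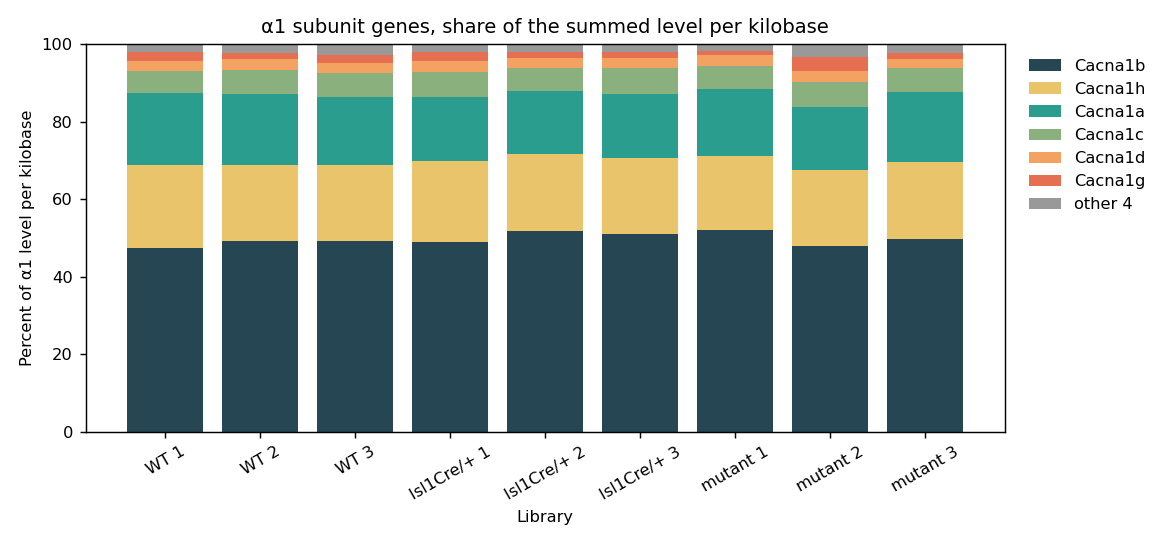
Share of each α1 gene in the summed α1 level per kilobase, in percent, as a stacked bar for each of the 9 libraries. Cacna1b takes close to the same share everywhere, 48.5%, 50.5% and 49.9% on average in WT, Isl1Cre/+ and mutant libraries, and mutant library 2 has the largest Cacna1g share, 3.70%.

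Of the α2δ genes, Cacna2d1 and Cacna2d2 held 46.6% ± 8.74 and 45.3% ± 7.87 of the family's level per kilobase in WT (SD, n = 3), and their order cannot be set with this spread. Cacna2d1 was measured at 227, 322 and 345 CPM in WT, at 267, 312 and 370 CPM in Isl1Cre/+ and at 334, 273 and 294 CPM in mutant libraries. WT library 1 was the lowest of all 9 libraries for this gene. Cacna2d3 held 8.08% ± 0.868, and Cacna2d4 never exceeded 7 counts.

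Among β genes, Cacnb3 held 63.7% ± 1.87 of the level per kilobase in WT (SD, n = 3), ahead of Cacnb1, which muscle also uses, with 23.8% ± 1.2, and Cacnb4 with 12.0% ± 2.94. Cacnb3 had 222, 191 and 174 CPM in WT, 187, 199 and 179 CPM in Isl1Cre/+, and 191, 164 and 192 CPM in mutant libraries, and the genotypes overlapped. Cacnb2, the main β subunit of heart, was the lowest β gene with 4.89 to 5.94 CPM in WT and 4.41 to 4.77 CPM in mutant libraries. These ranges did not overlap, while the Isl1Cre/+ libraries, at 3.97 to 5.26 CPM, overlapped both. The fitted difference between mutant and WT of -0.23 ± 0.15 on the log2 scale (SE) was not called (adjusted p = 1, edgeR quasi-likelihood test). Antisense genes overlapped 7.3178% of the exonic bases of Cacnb2 and 15.988% of those of Cacnb4, and because the strand setting of the counting is not stated, reads from the 2 strands cannot be told apart there.

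The γ genes lie partly in clusters that mix muscle and neuronal members. Cacng1, the γ subunit of the muscle channel, Cacng4 and Cacng5 occupy 212 kilobases of chromosome 11 (107703218 to 107915055, GRCm38), with 15.8 kilobases between Cacng1 and Cacng4. Cacng7, Cacng8 and Cacng6 occupy 103 kilobases of chromosome 7 (3332955 to 3435667). Within the first cluster, WT levels were 1.14 ± 0.803 CPM per kilobase for Cacng1, 12.9 ± 0.253 for Cacng4 and 9.13 ± 0.578 for Cacng5 (SD, n = 3). Within the second, they were 20.4 ± 3.56 for Cacng7, 0.876 ± 0.128 for Cacng8 and 0.113 ± 0.0999 for Cacng6, which resembles Cacng1 and is likewise used by muscle. Neighbours on the chromosome thus differed in level by more than the spread between WT libraries. Cacng7, an AMPA receptor auxiliary protein, was the highest of the family with 59.5, 46.9 and 42.8 CPM in WT, 48.8, 49.2 and 44.9 CPM in Isl1Cre/+ and 49.1, 45.8 and 46.01 CPM in mutant libraries, and its genotypes overlapped. Cacng4 was at 45.6 to 47.3 CPM in WT and 40.4 to 44.8 CPM in mutant libraries. The 2 ranges were apart, and the difference was small and not called (log2 fold change -0.09 ± 0.08, SE, adjusted p = 1, edgeR quasi-likelihood test). The Isl1Cre/+ libraries, at 42.1 to 48.9 CPM, overlapped both. With DESeq2's size factors or library size alone as the scaling, 3 rather than 4 of the tested genes had mutant libraries apart from WT, against 2.72% and 2.58% of all genes.

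For the tests, 27 of the 32 genes had at least 100 counts in at least 1 library, and Cacna1f, Cacna1i, Cacna2d4, Cacng6 and Cacng8 did not. Cacna1s and Cacng1 passed only through mutant library 2, so a high value in 1 library brought them into the test. A gene was called when it differed by 1.2-fold or more with an unadjusted p under 0.05 in edgeR's quasi-likelihood test, and the Benjamini-Hochberg adjusted p was read beside it. The 2 cut-offs are those of the study, which applied them to limma voom. The 3 comparisons share libraries pairwise and are not independent.

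Between mutant and WT libraries, 0 of the 27 genes were called, against 0.318% of the 13200 genes tested. None of the 27 had an unadjusted p under 0.05, and DESeq2 and limma voom also called 0. One gene of all (0.00758%), Meis2, had an adjusted p under 0.05 (0.00779, edgeR). The libraries of the 2 genotypes did not overlap for 4 of the 27 genes, Cacna1e, Cacnb2, Cacng2 and Cacng4, which were all lower in the mutant, and for 2.76% of all genes tested. The median log2 fold change was -0.04 over the 27 genes and -0.0094 over all genes, and 18 of the 27 lay below 0 (66.7%), against 53.8% of all genes. Without Cacna1s, Cacng1 and Ryr1, the fitted differences of the other 24 genes ran from -0.38 for Cacng2 to 0.25 for Itpr2, and their median was -0.07. Mutant library 2 was the lowest of the 9 libraries for 10 of these 24 genes, including Cacna1a, Cacna1b, Cacna1c, Cacna1h and Cacnb3, and WT library 1 was the highest for 11. The same 2 libraries had the lowest and the highest sum of sensory neuron markers, 7529 and 9919 CPM. Per 100 CPM of these markers, the 24 genes together had 19.2 to 21.6 CPM in WT, 20.4 to 21.3 in Isl1Cre/+ and 19.9 to 21.1 in mutant libraries. The part of the neuronal content in these differences was not tested.

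Between mutant and Isl1Cre/+ libraries, 2 of the 27 genes were called, Cacng1 and Ryr1, both higher in the mutant, against 1.67% of all genes tested. Cacng1 entered the test only through mutant library 2, and with at least 100 counts required in every library the count was 1. It was also 1, Ryr1, without mutant library 2, against 1.64% of all genes. Neither reached an adjusted p under 0.05 by edgeR, DESeq2 or limma voom. By edgeR 1 gene of all, Meis2, reached it (0.00758% of genes), while DESeq2 gave 10 genes, limma voom 1 and the replicate block 0. Ryr1 was the only one of the 27 genes whose libraries did not overlap, against 7.65% of all genes, and with library size alone as the scaling 2 genes did not overlap, against 7.98%. The other 24 genes ran from -0.20 for Itpr3 to 0.42 for Itpr2 on the log2 scale, with a median of -0.05 against 0.00029 over all genes.

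Between Isl1Cre/+ and WT libraries, 4 of the 27 genes were called, Cacna1s, Cacng1, Cacng2 and Ryr1, all lower in Isl1Cre/+, against 1.4% of all genes tested. With at least 100 counts required in every library, which leaves out Cacna1s and Cacng1, the count was 2. By edgeR, 0 of the 13200 genes (0%) had an adjusted p under 0.05, 236 had an unadjusted p under 0.05, and DESeq2 gave 1 gene with an adjusted p under 0.05 and limma voom 0. Cacna1s, Cacng2 and Ryr1 had no overlap between the 2 genotypes, against 6.08% of all genes. Of the 27 genes, 21 lay below 0 (77.8%), against 50.7% of all genes, and the median was -0.07, against -0.0016.

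**Figure D3:**
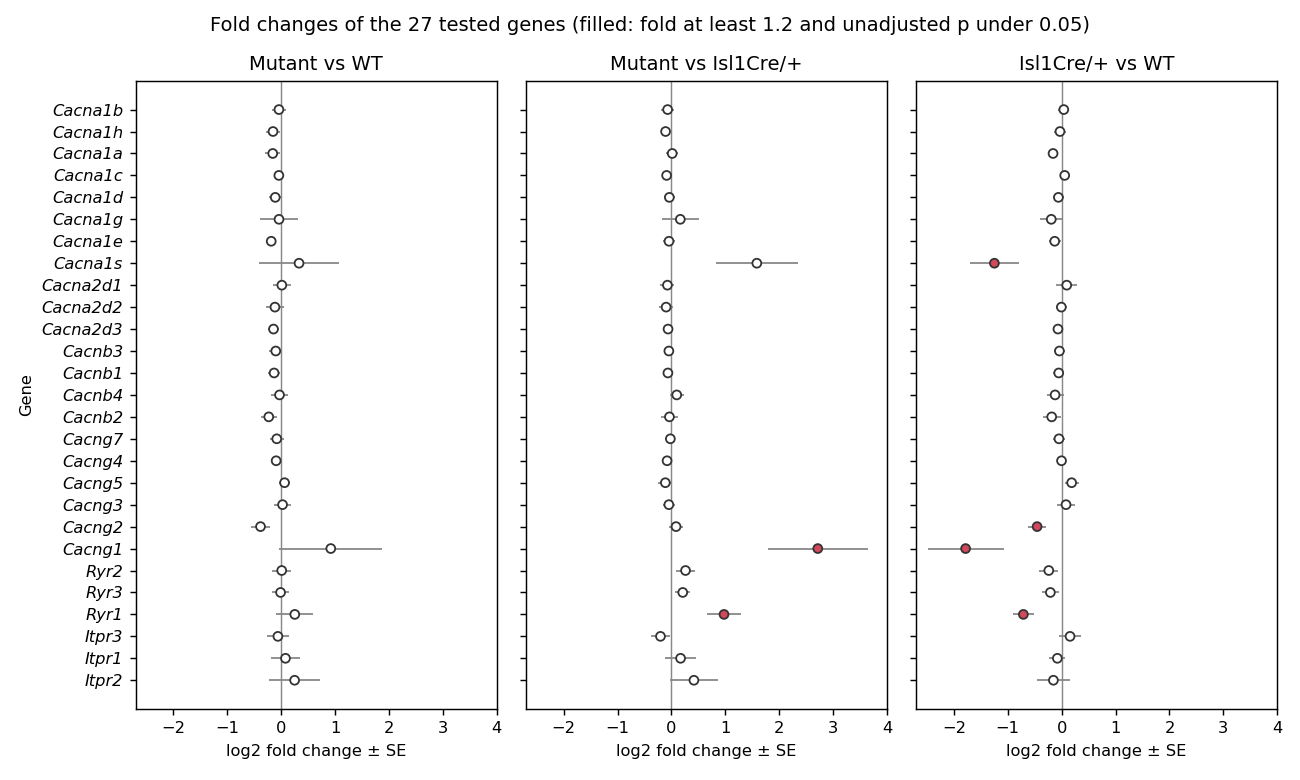
log2 fold change with its SE for the 27 tested genes in the 3 comparisons, each from a fit of 3 against 3 libraries. Filled points mark called genes, which differed by 1.2-fold or more with an unadjusted p under 0.05. None is filled for mutant vs WT, Cacng1 and Ryr1 are filled and higher for mutant vs Isl1Cre/+, and Cacna1s, Cacng1, Cacng2 and Ryr1 are filled and lower for Isl1Cre/+ vs WT.

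The muscle subunits accounted for 5 of these 6 calls, but Cacna1s and Cacng1 entered the test only through mutant library 2. With at least 100 counts required in every library, the calls left were Ryr1 in both comparisons with Isl1Cre/+ and Cacng2 for Isl1Cre/+ vs WT. Cacna1s, on the plus strand of chromosome 1 (136052750 to 136119822), had 34, 37 and 84 counts in the WT libraries, 29, 24 and 13 counts in Isl1Cre/+ and 11, 121 and 47 counts in the mutant. Mutant libraries held both the lowest and the highest count of this gene. Its log2 fold change was -1.25 ± 0.46 (SE) for Isl1Cre/+ vs WT (adjusted p = 1), 1.58 ± 0.77 for mutant vs Isl1Cre/+ (adjusted p = 1) and 0.33 ± 0.74 for mutant vs WT (adjusted p = 1, edgeR quasi-likelihood test). The first of these was not called without WT library 3, where it was -0.73, nor without Isl1Cre/+ library 2 or 3, where it was -1.34 and -0.99. It was likewise not called in a fit of all 3 genotypes (-1.25) or with the replicate block (-1.17). The difference between mutant and Isl1Cre/+ libraries was called by DESeq2 (1.59), with no filter on low counts (1.56) and without mutant library 1 (2.08). It was 0.59 without mutant library 2 and 1.06 with limma voom, and was called in neither case. The antisense gene Gm37759 overlaps 19.9847% of the exonic bases of Cacna1s and had 0 counts in every library.

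Cacng1, on the minus strand of chromosome 11 (107703218 to 107716522), had 49, 8 and 62 counts in the WT libraries, 16, 8 and 11 counts in Isl1Cre/+ and 11, 161 and 38 counts in the mutant. One WT library and one Isl1Cre/+ library shared the lowest count, so these groups overlapped. The log2 fold change was -1.78 ± 0.71 (SE) for Isl1Cre/+ vs WT (adjusted p = 1) and 2.72 ± 0.93 for mutant vs Isl1Cre/+ (adjusted p = 1, edgeR quasi-likelihood test). Without mutant library 2 the latter was 1.25 and was not called, nor was it without Isl1Cre/+ library 2 or 3. The lower level in Isl1Cre/+ was called without WT library 2 and was not called without any other single library, at -2.05 to -1.34. Limma voom called neither difference (-1.36 and 1.96), the replicate block did not call the one between mutant and Isl1Cre/+ (2.17), and a fit of all 3 genotypes did not call the one between Isl1Cre/+ and WT (-1.80). Cacng6 followed a like order at lower depth, with 3, 3 and 13 counts in the WT libraries, 4, 3 and 1 counts in Isl1Cre/+ and 0, 20 and 6 counts in the mutant, and was not tested.

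Ryr1, on the minus strand of chromosome 7 (29003344 to 29125179), had 260, 162 and 252 counts in the WT libraries, 157, 134 and 129 counts in Isl1Cre/+ and 171, 393 and 183 counts in the mutant. As CPM these were 9.79, 5.73 and 8.76, then 5.34, 4.79 and 4.55, then 6.43, 14.9 and 7.51, so every Isl1Cre/+ library was below every WT and every mutant library. The log2 fold change was -0.71 ± 0.20 (SE) for Isl1Cre/+ vs WT (adjusted p = 1) and 0.98 ± 0.31 for mutant vs Isl1Cre/+ (adjusted p = 1, edgeR quasi-likelihood test). Without mutant library 2 Ryr1 was still called for mutant vs Isl1Cre/+, at 0.51, whereas without Isl1Cre/+ library 3 it was 0.93 and was not called. Mutant and WT libraries overlapped, with a log2 fold change of 0.25 ± 0.35 (SE) that was not called.

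The skeletal muscle markers moved in the same direction as these genes. Of their 15 genes 14 were tested, and 13 were called lower in Isl1Cre/+ than in WT, 13 higher in mutant than in Isl1Cre/+ and 0 in either direction between mutant and WT (edgeR). Their median log2 fold change was -2.03, 2.95 and 0.87 in these 3 comparisons, and none of the 15 was at 0 in every library. Of all genes tested, 1.4%, 1.67% and 0.318% were called. Without mutant library 2, 11 of the 14 were called higher in mutant than in Isl1Cre/+ with a median of 1.53, and the median for mutant vs WT was -0.54 with 0 called. Mutant library 2 ranked first of the 9 libraries for the marker sum, for Cacna1s, for Cacng1 and for Ryr1, and Isl1Cre/+ library 3 ranked last for the marker sum and for Ryr1. The last for Cacna1s was mutant library 1, at rank 6 for the markers, and the last for Cacng1 was WT library 2, at rank 7. Per 1000 counts of the markers, Ryr1 had 5.06 counts in mutant library 2 and 47.8 in Isl1Cre/+ library 3, the library poorest in muscle markers, and Cacng1 had 1.15 to 4.08 over the 9 libraries. Cacna1s ranged from 1.56 to 7.11 on the same scale. The ratio of Ryr1 to the markers therefore varied more between libraries than that of Cacng1. Heart markers were close to the detection limit, with a sum of 0.637 to 3.08 CPM, and the 5 red cell markers were called in the same directions, 5 lower in Isl1Cre/+ than in WT and 5 higher in mutant than in Isl1Cre/+, the latter also without mutant library 2. Of the 4 smooth muscle markers 3 were tested, Acta2, Myh11 and Tagln, and all 3 were called higher in mutant than in Isl1Cre/+, with a median log2 fold change of 0.92, or 0.56 without mutant library 2, where they were called as well. None of the 3 was called in the other comparisons. Of the 4 endothelial markers, Kdr and Pecam1 were called higher in Isl1Cre/+ than in WT (0.52 and 0.35), and Kdr was called lower in mutant than in Isl1Cre/+ (-0.37), as were both Kdr (-0.42) and Pecam1 (-0.32) without mutant library 2. The cartilage marker Acan was called higher in mutant than in Isl1Cre/+ (1.12), but not without mutant library 2 (0.93). No tested marker of sensory neurons, glia, macrophages or fibroblasts was called in any comparison with all libraries. How much the muscle RNA in each library contributed to the called differences of Cacna1s, Cacng1 and Ryr1 was not tested.

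**Figure D4:**
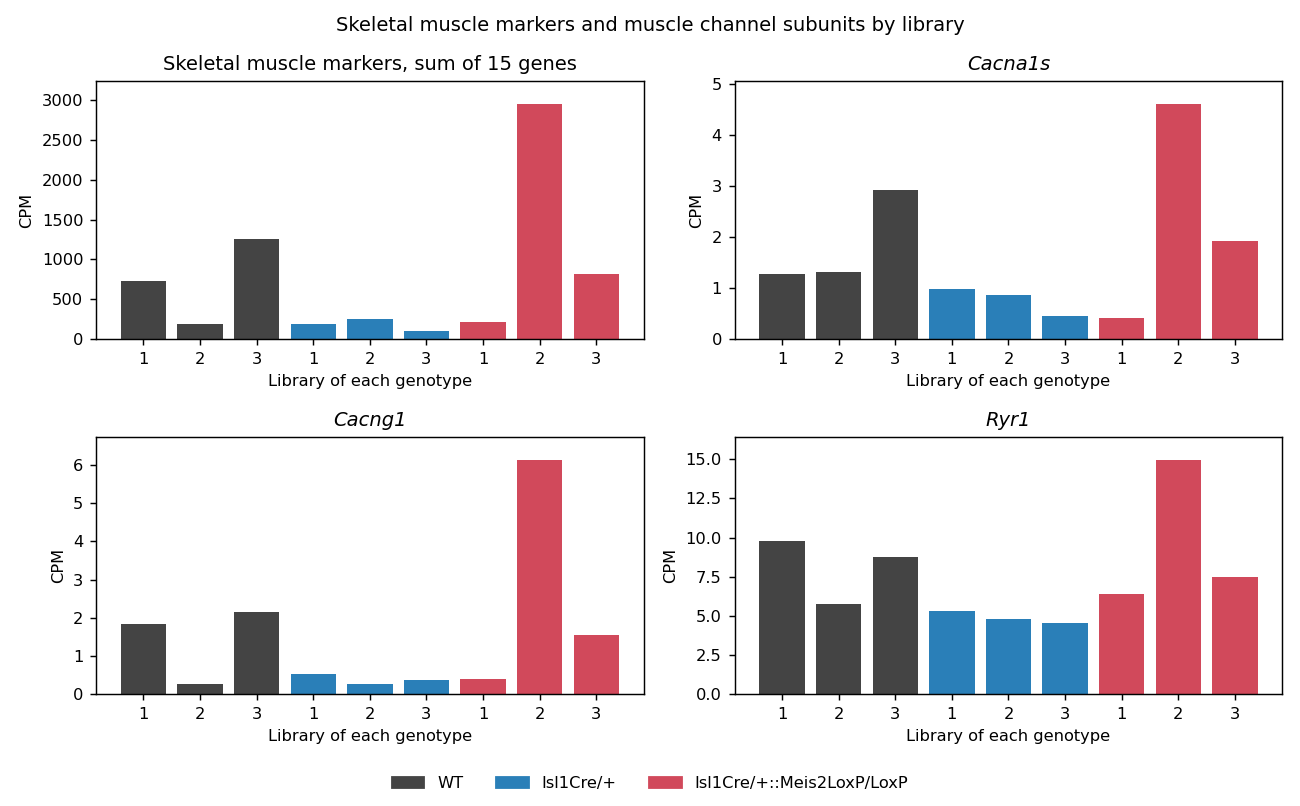
Summed CPM of the 15 skeletal muscle markers and CPM of Cacna1s, Cacng1 and Ryr1 as bars from 0, 1 bar per library, coloured by genotype. Mutant library 2 is the highest in all 4 panels, with 2949 CPM for the markers and 14.9 CPM for Ryr1, and the 3 Isl1Cre/+ libraries lie at 95.2 to 248 CPM and 4.55 to 5.34 CPM.

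Cacng2, which encodes stargazin, a neuronal protein that brings AMPA receptors to the synapse, was the 1 called gene that is no muscle subunit. It lies on the minus strand of chromosome 15 (77991748 to 78120028) and had 13.0, 9.84 and 9.17 CPM in WT, 7.83, 6.68 and 8.57 CPM in Isl1Cre/+ and 8.95, 8.40 and 7.14 CPM in mutant libraries. All 6 libraries with the Cre allele were below all WT libraries, and the mutant and Isl1Cre/+ libraries overlapped. The log2 fold change was -0.46 ± 0.16 (SE) for Isl1Cre/+ vs WT (adjusted p = 1), -0.38 ± 0.17 for mutant vs WT (adjusted p = 1) and 0.09 ± 0.14 for mutant vs Isl1Cre/+ (adjusted p = 1, edgeR quasi-likelihood test). The difference between Isl1Cre/+ and WT was -0.46 and -0.37 without Isl1Cre/+ library 1 and 2, and was not called in either case. Without WT library 1, the highest for this gene, it shrank to -0.31 and was still called. The difference between mutant and WT shrank to -0.22 in that setting. Both differences from WT use the same 3 WT libraries. In WT, Cacng2 held 3.95% ± 0.452 of the γ level per kilobase, against 2.92% ± 0.252 in Isl1Cre/+ and 3.09% ± 0.343 in mutant libraries (SD, n = 3). The 7 spinal neuron markers, none with enough counts for a test, summed to 1.66 to 3.16 CPM in WT, 0.102 to 0.25 CPM in Isl1Cre/+ and 0.376 to 1.60 CPM in mutant libraries, and their part in the difference of Cacng2 was not tested. The antisense gene A730060N03Rik overlaps 5.8621% of the exonic bases of Cacng2 and had 1 to 9 counts.

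The release channels of the reticulum other than Ryr1 were not called in any comparison. Ryr2, the ryanodine receptor of heart and neurons, led its family in WT with 50.8% ± 0.760 of the level per kilobase (SD, n = 3), followed by Ryr3 with 36.4% ± 1.96 and Ryr1 with 12.8% ± 2.66. Ryr2 had 51.2, 38.3 and 37.3 CPM in WT, 29.5, 43.8 and 33.1 CPM in Isl1Cre/+ and 52.7, 36.8 and 38.0 CPM in mutant libraries, with overlap throughout. Without Isl1Cre/+ library 2, Ryr2 was called lower in Isl1Cre/+ than in WT (log2 fold change -0.42), against 1.27% of all genes. In that setting Ryr2 (0.44) and Ryr3 (0.35) were called higher in mutant than in Isl1Cre/+, against 1.73%.

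Itpr3 held 75.4% ± 1.02 of the IP3 receptor level per kilobase in WT (SD, n = 3) and stood 6.10 times above Itpr1, or 3.30 times with the longest transcript as the length. It had 69.1, 41.9 and 50.7 CPM in WT, 73.9, 50.5 and 53.8 CPM in Isl1Cre/+ and 41.9, 57.7 and 55.2 CPM in mutant libraries, and the genotypes overlapped. Itpr1 and Itpr2 were highest of all libraries in mutant library 2, with 28.4 and 30.1 CPM against 13.3 to 20.5 and 8.93 to 21.1 CPM in the other 8 libraries. The 4 smooth muscle markers summed to 83.4 CPM in the same library and to 37.2 and 43.3 CPM in the other mutant libraries, against 21.3 to 34.5 CPM in Isl1Cre/+ and 27.3 to 45.6 CPM in WT, and their part in the level of Itpr1 and Itpr2 was not tested. For mutant vs WT, the log2 fold change of Itpr1 was 0.08 with all libraries and was not called. Without mutant library 2 it was -0.31 ± 0.13 (SE, adjusted p = 1, edgeR quasi-likelihood test) and was called lower in the mutant.

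**Figure D5:**
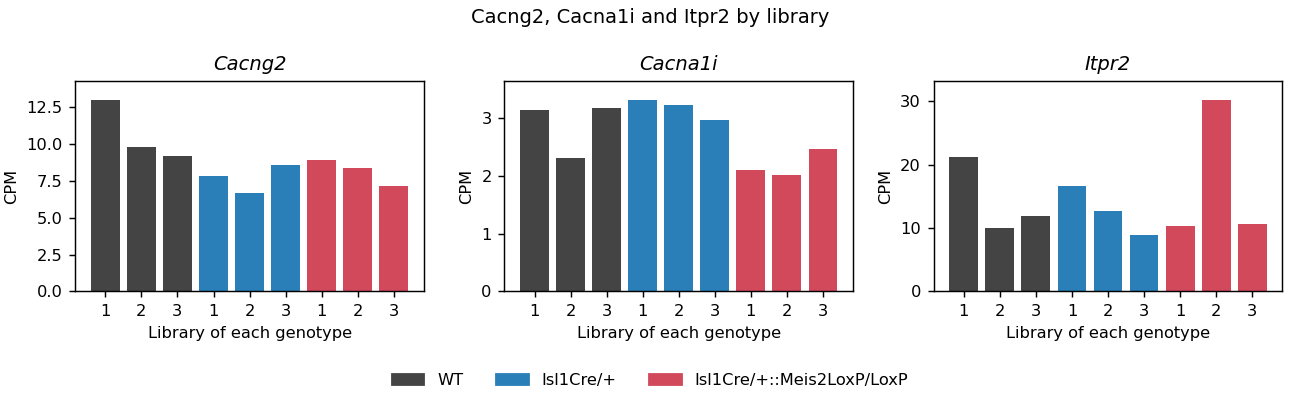
CPM of Cacng2, Cacna1i and Itpr2 as bars from 0, 1 bar per library, coloured by genotype. For Cacng2 the 6 libraries with the Cre allele lie at 6.68 to 8.95 CPM, below the WT libraries at 9.17 to 13.0 CPM. For Cacna1i the mutant libraries lie at 2.01 to 2.46 CPM, and for Itpr2 mutant library 2 reaches 30.1 CPM.

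The channels act with proteins that tether, regulate, pump and buffer calcium, and 60 genes of such partners were examined, of which 53 were tested. For Isl1Cre/+ vs WT, 7 were called, all lower, and for mutant vs Isl1Cre/+ 8 were called, 7 higher and 1 lower, against 1.4% and 1.67% of all genes tested. In the latter comparison 4 were called without mutant library 2, all higher (Atp2a1, Casq1, Sln and Trdn). The first 6 by p in the former were Sln and Atp2a1, a regulator and the calcium pump of the muscle reticulum, Trdn, which anchors the store protein to the ryanodine receptor, the store proteins Casq1 and Casq2, and Hrc, a calcium-binding protein of the same reticulum. Their log2 fold changes lay between -2.11 for Atp2a1 and -1.23 for Hrc (adjusted p = 1 each, edgeR). In mutant vs Isl1Cre/+, the first 6 by p were Sln, Trdn, Atp2a1, Casq1, Casq2 and Jph2, a junction protein of muscle, with log2 fold changes between 1.11 for Jph2 and 3.14 for Atp2a1 (adjusted p = 1 each). Jph2, at 1.94 ± 0.55 CPM in WT and 1.15 ± 0.21 in Isl1Cre/+ (SD, n = 3), entered the test only through a mutant library. Without mutant library 2, Jph2, Casq2 and Hrc were no longer called. The genes named so far belong to the muscle reticulum, and the part of the muscle content of the libraries in their differences was likewise not tested. For mutant vs WT, 1 of the 53 was called, against 0.318% of all genes tested. It was Calb2, which encodes the calcium buffer calretinin, with 4.31 ± 1.15 CPM in WT, 3.68 ± 1.41 in Isl1Cre/+ and 2.11 ± 0.405 in mutant libraries (SD, n = 3). Calb2 had a log2 fold change of -1.03 ± 0.27 (SE, adjusted p = 1, edgeR quasi-likelihood test). It was also the 1 partner lower in mutant than in Isl1Cre/+ libraries, at -0.80 ± 0.32 (adjusted p = 1, edgeR quasi-likelihood test), a value named after it was seen. This difference was not called without Isl1Cre/+ library 1 (-0.82) or 2 (-0.48), without mutant library 2 (-0.75) or 3 (-0.69), or with limma voom (-0.73), whereas that from WT was called with any 1 library left out, at -1.21 to -0.82. Calb2 stayed under 100 counts in every mutant library, so it entered the test only through the other genotypes, where it was higher. It was not tested where at least 100 counts in every library were required. The 12 genes of calcium entry and membrane tethers, the 7 of mitochondrial uptake and the 8 of buffers and sensors had medians of -0.07, 0.02 and -0.02 for mutant vs WT.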

How the data were processed

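RNA of E18.5 mouse DRG was sequenced in 9 libraries, 3 per genotype, and genotypes were taken from the labels. The authors selected poly(A) RNA, aligned the reads to mm10 with STAR, removed PCR duplicates by unique molecular identifiers and counted reads per gene with HTSeq, without stating the annotation release or the strand option. The deposited values used are these raw counts. The 18 deposited columns of the authors' own limma voom comparisons (fold changes, mean expression, statistics, p-values and log odds) were not used.

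The 13200 genes that reached 100 counts in any library entered the fits. After TMM normalization, edgeR 4.0.16 (R 4.3.3) fitted every genotype pair separately, and its two-sided quasi-likelihood p was adjusted by Benjamini-Hochberg over these genes. CPM used TMM factors over all 9 libraries. Exon lengths and positions came from GENCODE release M21 on GRCm38. The T-type share was compared by exact permutation of libraries. Libraries of a genotype differed by 12.6 to 129 times the variance of counting error, so the spread between libraries, not depth, limits abundant genes, while counting error matters for genes under about 100 counts. The highest values were those of WT library 1, 108 and 129 with WT libraries 2 and 3, against 13.8 between WT libraries 2 and 3.

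Values in every library are given for called genes, the 3 muscle subunits and the highest gene of each family per kilobase. Called partners are named by p, up to 6 a comparison. The genes and lists were chosen with earlier results of these data known. The alternatives were DESeq2's size factors, library size only, no filter, 100 counts in every library, DESeq2 1.42.0, limma voom 3.58.1, all genotypes in 1 fit, a replicate block, leaving out single libraries, no fold requirement or one of 1.5, and for the share another length or none. Leaving out WT library 3 together with mutant library 2 was added after seeing the data. The fit was tested on simulated data. One gene of the sensory neuron markers is not reported here and was left out of their sum.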

Additional observations from a re-analysis of the deposited data

How the results depend on the processing

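Counts of called genes are small, and single libraries move them. For mutant vs WT, where 0 were called, all 3 genotypes in 1 fit, library size only and the replicate block gave 1 each, Cacng2 every time, against 0.417%, 0.258% and 0.235% of all genes, and leaving out 1 library gave 0 to 1 (Cacng2 without WT library 3, Itpr1 without mutant library 2), against 0.303% to 1.0%. Without both WT library 3 and mutant library 2 the count was 0, against 0.705%. For mutant vs Isl1Cre/+, where 2 were called, the count was 1 with at least 100 counts in every library, with limma voom and with the replicate block (1.1%, 1.17% and 1.34% of all genes), 4 with no filter (3.18%), and 0 to 3 with 1 library left out (1.27% to 3.08%). It was 0 without Isl1Cre/+ library 3, 1 without mutant library 2, and 3 without mutant library 1 or Isl1Cre/+ library 2. For Isl1Cre/+ vs WT, where 4 were called, the count was 2 with all 3 genotypes in 1 fit and with at least 100 counts in every library (0.955% and 0.883%), and 2 to 4 with 1 library left out (0.773% to 2.58%). It was 2 without WT library 3 and without each Isl1Cre/+ library in turn, 3 with the replicate block, which did not call Cacna1s (1.79%), and 3 with limma voom, which did not call Cacng1 (1.06%). Without WT library 1 the count was also 4, but Cacnb4 was called and Cacng1 was not.

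Signs changed for differences that were not called. For mutant vs WT, Cacna1s was -0.15 with limma voom, -0.035 with the replicate block and -0.13 without both WT library 3 and mutant library 2, a setting that also gave -0.07 for Cacng1 and -0.12 for Ryr1. With 1 library left out these 3 genes ran from -0.65 to 0.84, from -0.52 to 1.43 and from -0.19 to 0.47, and Cacng2 for mutant vs Isl1Cre/+ from -0.0062 to 0.17. Among all 27 genes, 11, 11 and 14 kept their sign under every alternative for mutant vs WT, mutant vs Isl1Cre/+ and Isl1Cre/+ vs WT. The difference in T-type share with 1 library left out ran from -1.53 to 0.0512, from -1.30 to 0.272 and from -0.890 to 0.543 percentage points in these comparisons. The labels do not say whether replicate numbers pair the libraries. The deviations of same-numbered libraries correlated at -0.60 to 0.39, with both signs, which does not decide it. The causes of these shifts were not tested.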
